A study of Mus musculus with 4 samples.

Results

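The major histocompatibility complex (MHC) genes of the mouse, named with the prefix H2, and the genes that supply, load and control their products were examined in sorted fetal liver stem and progenitor cells with and without the chromatin reader Brpf1. Every gene symbol that starts with H2- was taken, together with B2m, Tap1, Tap2, Tapbp, Tapbpl, Erap1, Nlrc5, Ciita, Cd74, Calr and Canx, which gave 52 of the 20207 listed genes. They comprise 2 classical class I genes, 27 class Ib genes, 10 class II genes, 8 genes of the class I light chain, peptide supply and folding, and 3 genes of class I and II control and the invariant chain. The 2 others, H2-Ke2 and H2-Ke6, lie in the MHC and carry its prefix but encode a prefoldin subunit and a dehydrogenase.

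LSK cells lack lineage markers, carry Sca-1 and Kit, and include the hematopoietic stem cells and multipotent progenitors. Both genotypes, wild-type and Brpf1-null, were sorted from mouse fetal livers at E14.5, with cells of 4 embryos pooled per sample, and polyadenylated RNA was read by sequencing after oligo-dT priming. How the null allele was made, the mouse strain and the MHC haplotype were not stated in the labels. The labels describe 2 samples per genotype in 2 pairs, but the tables of the 2 pairs held the same value for all 20207 genes and were counted as 1 library per genotype. No difference below has a replicate check and no p-value was computed.

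About 23615648 reads stood behind the wild-type values and 22207222 behind the Brpf1-null values. Brpf1 itself was at 2.59 and 2.15 RPKM (reads per kilobase of transcript, scaled to the size of the library), 1.20-fold lower (95% counting interval 1.00 to 1.43) in the library labelled Brpf1-null. A value over the whole transcript cannot show the loss of single exons, so this does not check the label. The gate genes Kit (25.6 and 21.3 RPKM) and Ly6a, which encodes Sca-1 (10.57 and 9.51 RPKM), were present in both libraries. Markers of cells outside the gate were present too. The 11 hepatocyte markers summed to 2054 RPKM in wild-type and 539 RPKM in Brpf1-null cells, the 10 listed B cell markers to 269 and 84.4 RPKM, and the 10 erythroid markers to 639 and 94.4 RPKM. The 11 LSK genes summed to 397 and 385 RPKM, but 8 of the 10 that averaged 1 RPKM or more were lower, with a median log2 change of −0.44. On the log2(RPKM + 1) scale, 3 of the 10 were at least 1.5-fold lower and 1 higher, beside 9.42% and 14.1% of all genes with that mean. Mecom was 4.14-fold, Meis1 2.59-fold and Hlf 2.03-fold lower, while Cd34 was 1.54-fold higher (116.8 and 179.3 RPKM). The 11 T and NK cell markers summed to 51.4 and 60.7 RPKM, most of it Nkg7 (38.4 and 53.35 RPKM), with Rag1 23.1-fold and Il7r 4.61-fold lower, Cd4 4.24-fold higher, and Cd3e and Ncr1 listed at 0 in both. The 9 endothelial markers summed to 31.5 and 25.98 RPKM. In RNA from pooled cells, fewer cells of a type and less RNA per cell cannot be told apart.

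Class I molecules pair a polymorphic heavy chain with the light chain beta-2-microglobulin and present peptides from the cell's own proteins to CD8 T cells. The peptides are cut by the proteasome, carried into the endoplasmic reticulum by the TAP1 and TAP2 transporter, trimmed by ERAP1 and loaded with the help of tapasin, calreticulin and calnexin. Class Ib molecules share the fold but are less polymorphic and often have specialised ligands or receptors. Class II molecules pair an alpha and a beta chain, are kept free of early peptide by the invariant chain CD74, receive peptide with the help of H2-DM, which H2-O restrains, and are found mainly on dendritic cells, macrophages and B cells. The coactivators CIITA and NLRC5 drive class II and class I genes, respectively.

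The class I heavy chains and B2m were abundant and close to each other in the 2 libraries, and differences past 1.5-fold were found among class II genes, Tap1, Cd74, Canx, the class Ib gene H2-Q10 and H2-Ke6. Of the 52 genes, 15 were listed at 0 in both libraries, 13 were above 0 with a mean under 1 RPKM, and 24 averaged 1 RPKM or more. Of these 24 genes, 6 were at least 1.5-fold higher in the Brpf1-null library on the log2(RPKM + 1) scale, namely Tap1, Canx, Cd74, H2-Aa, H2-Oa and H2-Ke6, against a background of 14.1% of the 9380 genes with that mean. H2-Q10 and H2-Ob were at least 1.5-fold lower, which is 2 of 24 against a background of 9.42%. The 24 genes had a median log2 change of 0.30, beside 0.04 over all 9380 genes. Centring the libraries on their medians shifted the median of all genes by −0.11 on the log2 scale, and the split of all genes past 1.5-fold went from 59.9% higher (1323 higher, 884 lower) to 45.1% higher (988 higher, 1201 lower).

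**Figure D1:**
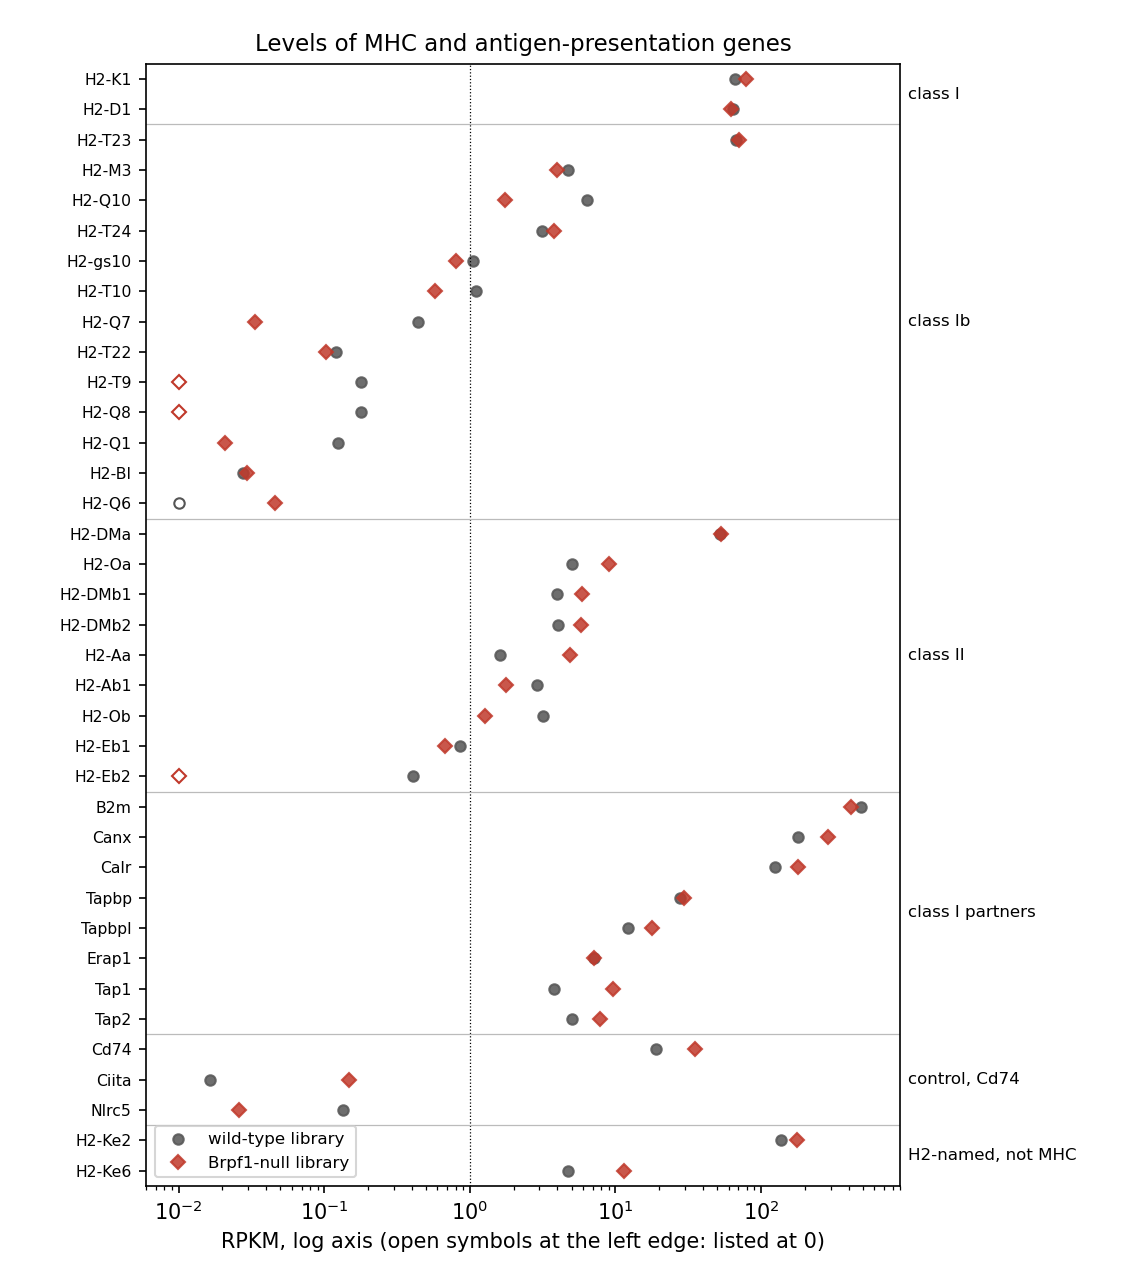
RPKM of the 37 genes above 0 in at least 1 library, on a log axis, with grey circles for the wild-type and red diamonds for the Brpf1-null library and open symbols for a listed 0. The dotted line marks 1 RPKM. B2m, Canx, Calr and H2-Ke2 are above 100 RPKM in both libraries, and most class Ib genes lie near or below 1 RPKM.

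The classical class I heavy chain genes differed little between the libraries. H2-K1, on chromosome 17, was at 66.6 RPKM in wild-type and 78.3 RPKM in Brpf1-null cells, 1.18-fold higher with a 95% counting interval of 1.11 to 1.24. Ranges in brackets after later folds are such intervals. They cover counting error only, not the spread between embryos or pools, and treat reads as independent, which PCR copies are not. H2-D1, the other classical gene of the reference genome, was at 64.55 and 61.9 RPKM, 1.04-fold lower (0.991 to 1.10), which this depth cannot tell from no difference. Their median log2 change of 0.09 was −0.04 with centring and −0.03 with the trend on GC content removed, so no direction is given for the pair.

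B2m, which encodes the light chain shared by class I and most class Ib molecules, had the highest mean of the 52 genes and ranked 136 of all listed genes. It was at 486 RPKM in wild-type and 416 RPKM in Brpf1-null cells, 1.17-fold lower (1.13 to 1.20). With the GC trend removed, its log2 change was −0.01, beside −0.22 as deposited. Per length, B2m exceeded the summed level of the 3 most abundant heavy chains (H2-K1, H2-D1 and H2-T23) by 2.45-fold in wild-type and 1.97-fold in Brpf1-null cells.

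Among the 27 class Ib genes, H2-T23 stood apart by its level. It encodes Qa-1, which presents leader peptides of other class I molecules to an inhibitory receptor of NK cells. It was at 67.4 RPKM in wild-type and 71.1 RPKM in Brpf1-null cells, 1.06-fold higher (0.996 to 1.12), and its log2 change went from 0.08 to −0.05 with centring. H2-K1, H2-D1 and H2-T23 together made up 91.9% of the summed class I and Ib RPKM of wild-type cells and 95.02% of that of Brpf1-null cells. In wild-type cells these 3 genes lay between 64.55 and 67.4 RPKM.

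The other class Ib genes were each under 10 RPKM in both libraries. H2-M3, which presents peptides that begin with N-formylmethionine, was at 4.72 and 3.95 RPKM, 1.20-fold lower (0.9396 to 1.52). H2-T24 was at 3.16 and 3.79 RPKM, 1.20-fold higher (0.967 to 1.49). Neither difference was detectable at this depth.

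H2-Q10 was the class Ib gene with the largest difference among those that averaged 1 RPKM or more. It encodes a class I-like protein that the liver secretes. H2-Q10 was at 6.34 RPKM in wild-type and 1.74 RPKM in Brpf1-null cells, from about 221 and 57 reads, 3.64-fold lower (2.71 to 4.97). Its log2 change of −1.42 lay below those of all but 1.58% of the 9380 genes. In the same libraries all 10 hepatocyte markers that averaged 1 RPKM or more were at least 1.5-fold lower, beside 9.42% of all genes. Their full list of 11 was summed at 2054 and 539 RPKM. The part of liver cells in the H2-Q10 value was not tested.

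The promoters of H2-K1 and H2-D1 share a stretch that H2-Q10 carries in altered form, and the stretch is shown because H2-Q10 differed between the libraries far more than the other two. Sequences are from the RefSeq promoter table of GRCm38.p6, which runs from 250 bases before to 50 bases after each listed start, and the deposited values were aligned to mm9. Of the 52 genes, 39 had a promoter there. Capitals mark enhancer A, an NF-kB type site, by its 11 letters in the H2-K1 promoter (GGGGATTCCCC), and the interferon response letters (GAANNGAAA, here read on the other strand, as TTTCACTTC). The 2 motifs do not overlap. The stretches lie upstream of the start on the gene's own strand, at chr17:34000421-34000466 (minus strand, H2-K1), chr17:35262915-35262960 (plus strand, H2-D1) and chr17:35469905-35469950 (plus strand, H2-Q10).
H2-K1: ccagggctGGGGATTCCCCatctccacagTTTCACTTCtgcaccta
H2-D1: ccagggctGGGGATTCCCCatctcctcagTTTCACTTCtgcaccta
H2-Q10: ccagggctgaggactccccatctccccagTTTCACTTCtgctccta

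Enhancer A, searched on both strands, was found in 10 of 32851 promoters (0.0304%), and 3 of these belong to H2-D1, H2-Q6 and H2-K1, from which its letters were taken. In H2-Q10 the site at the same offset differs by G2A and T6C, counted from 1 at the first letter of enhancer A, with 9 of 11 letters kept. The interferon response letters were in 8 of the 23 class I and Ib promoters, among them all 3 printed, beside 7.52% of all promoters. A match is a description of letters and not of a bound site. H2-K1 and H2-D1, with the same letters at both motifs, were within 1.18-fold between the libraries, and H2-Q10 was 3.64-fold lower. The promoters of H2-T23 and H2-M3 did not hold the enhancer A letters either. These genes were 1.06-fold higher and 1.20-fold lower, with intervals that include 1. Whether the letters bear on any of these values was not tested.

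The remaining class Ib genes were near or at the limit of what these libraries resolve. Of the 27, 14 were listed at 0 in both libraries, among them all 6 H2-M10 genes, a family known from vomeronasal neurons, and H2-T3, which encodes the thymus leukemia antigen. H2-Tw3, also listed at 0 in both, matched the same reference gene as H2-T3, so these counts are of listed symbols. A further 9 were above 0 with a mean under 1 RPKM, and of these 7 were lower and 2 higher in the Brpf1-null library. The same split was not computed over all genes of that level, and several of the 9 rest on few reads. No direction is therefore read from this count. H2-T10, whose product is a ligand of some gamma delta T cell receptors, was at 1.11 and 0.577 RPKM, 1.92-fold lower (1.34 to 2.87). H2-gs10, which RefSeq lists as a synonym of H2-Q4, was at 1.06 and 0.799 RPKM, 1.32-fold lower (0.822 to 2.15). H2-Q7, which encodes the Qa-2 antigen, was at 0.44 RPKM in wild-type and 0.0335 RPKM in Brpf1-null cells, from about 14 reads and 1 read, a wild-type to Brpf1-null ratio of 13.2 (2.00 to 557). The 9 genes summed to 3.24 RPKM in wild-type and 1.61 RPKM in Brpf1-null cells.

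Sequence shared between H2 genes limits how these low values can be read. In GENCODE M21 transcripts, 61.8% of the 50-base windows of H2-T9 (matched to Gm7030), 44.7% of those of H2-T22, 36.8% of H2-Q6 and 34.9% of H2-Q7 were also found in a transcript of another gene. The share was 28.8% for H2-T23, 14.3% for H2-D1, 10.96% for H2-Q10 and 8.35% for H2-K1. With windows of 100 bases it was 7.28% for H2-T23, 4.64% for H2-D1, 2.84% for H2-Q10 and 0% for H2-K1. The labels do not say how reads that fit several genes were assigned, so the class Ib levels are uncertain in both libraries. A listed 0 is given only as a listed value.

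**Figure D2:**
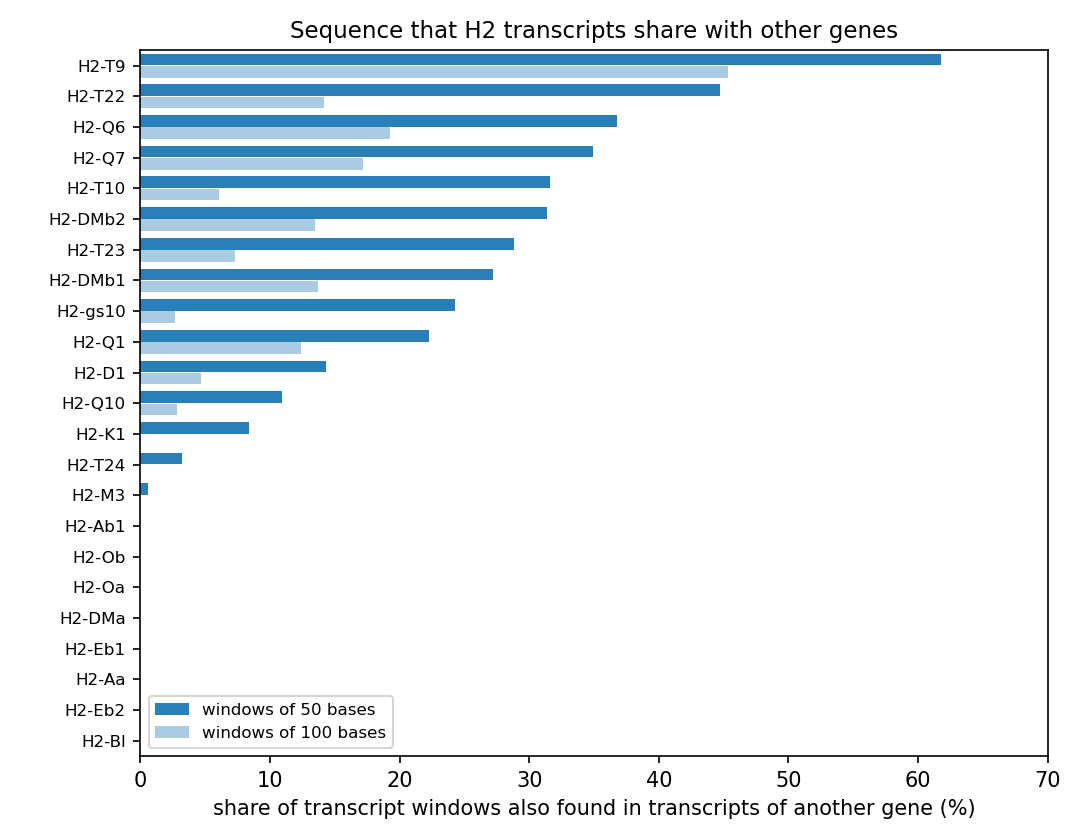
Share of the windows of each class I, Ib or II transcript that also occur in a transcript of another gene, in percent, for windows of 50 bases (dark) and 100 bases (light). The class Ib genes H2-T9, H2-T22, H2-Q6 and H2-Q7 share the most, and of the class II genes H2-DMb1 and H2-DMb2 share 27.2% and 31.3% of their 50-base windows while the others share 0%.

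Class II genes went in both directions, and the 2 chains of the I-A and H2-O heterodimers differed in opposite directions. Of the 10 class II genes, 7 averaged 1 RPKM or more; 2 of these were at least 1.5-fold higher, 1 was at least 1.5-fold lower and 4 lay within 1.5-fold, beside 14.1% of all genes higher and 9.42% lower. Their median log2 change was 0.44, which was 0.031 with no filter on low genes. H2-Aa, the alpha chain of the I-A molecule, was at 1.62 RPKM in wild-type and 4.88 RPKM in Brpf1-null cells, from about 43 and 122 reads, 3.01-fold higher (2.12 to 4.38). H2-Ab1, its beta chain partner, was at 2.89 and 1.77 RPKM, from about 83 and 48 reads, 1.63-fold lower (1.13 to 2.37). On the log2(RPKM + 1) scale H2-Ab1 was at −0.49, within 1.5-fold, and it passed 1.5-fold with a pseudocount of 0.1 RPKM (−0.68) and with the GC trend removed (−0.67). The counting intervals of the 2 chains lay on opposite sides of 1.

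The same split was seen in H2-O, the heterodimer that restrains peptide exchange. H2-Oa, its alpha chain, was at 5.04 RPKM in wild-type and 9.01 RPKM in Brpf1-null cells, 1.79-fold higher (1.44 to 2.25). H2-Ob, its beta chain, was at 3.17 and 1.26 RPKM, 2.50-fold lower (1.91 to 3.32). With the GC trend removed, the log2 change of H2-Oa was 0.56, inside 1.5-fold, and that of H2-Ob was −0.78. With a pseudocount of 5 RPKM H2-Aa (0.58), H2-Oa (0.48) and H2-Ob (−0.38) all lay inside 1.5-fold, as that pseudocount is close to or above their levels.

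The genes of H2-DM, which exchanges peptides on class II molecules, kept closer together. H2-DMa, the alpha chain gene, was at 52.2 RPKM in wild-type and 53.3 RPKM in Brpf1-null cells, 1.02-fold higher (0.960 to 1.09), and its log2 change went from 0.03 to −0.09 with centring. The beta chain genes H2-DMb1 (3.98 and 5.92 RPKM) and H2-DMb2 (4.03 and 5.83 RPKM) were 1.49-fold (1.19 to 1.88) and 1.45-fold (1.15 to 1.81) higher. These 2 copies share sequence, so their reads cannot be fully told apart. H2-DMa exceeded H2-DMb1 by 13.1-fold per length in wild-type and 9.01-fold in Brpf1-null cells, and it was the most abundant class II gene in both.

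The E molecule was near the floor. H2-Eb1, its beta chain gene, was at 0.861 and 0.674 RPKM, from about 34 and 25 reads. H2-Eb2 stood at 0.406 RPKM in wild-type cells, about 33 reads, and was listed at 0 in Brpf1-null cells. H2-Ea, the alpha chain gene, which is inactive in some mouse haplotypes, was listed at 0 in both.

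**Figure D3:**
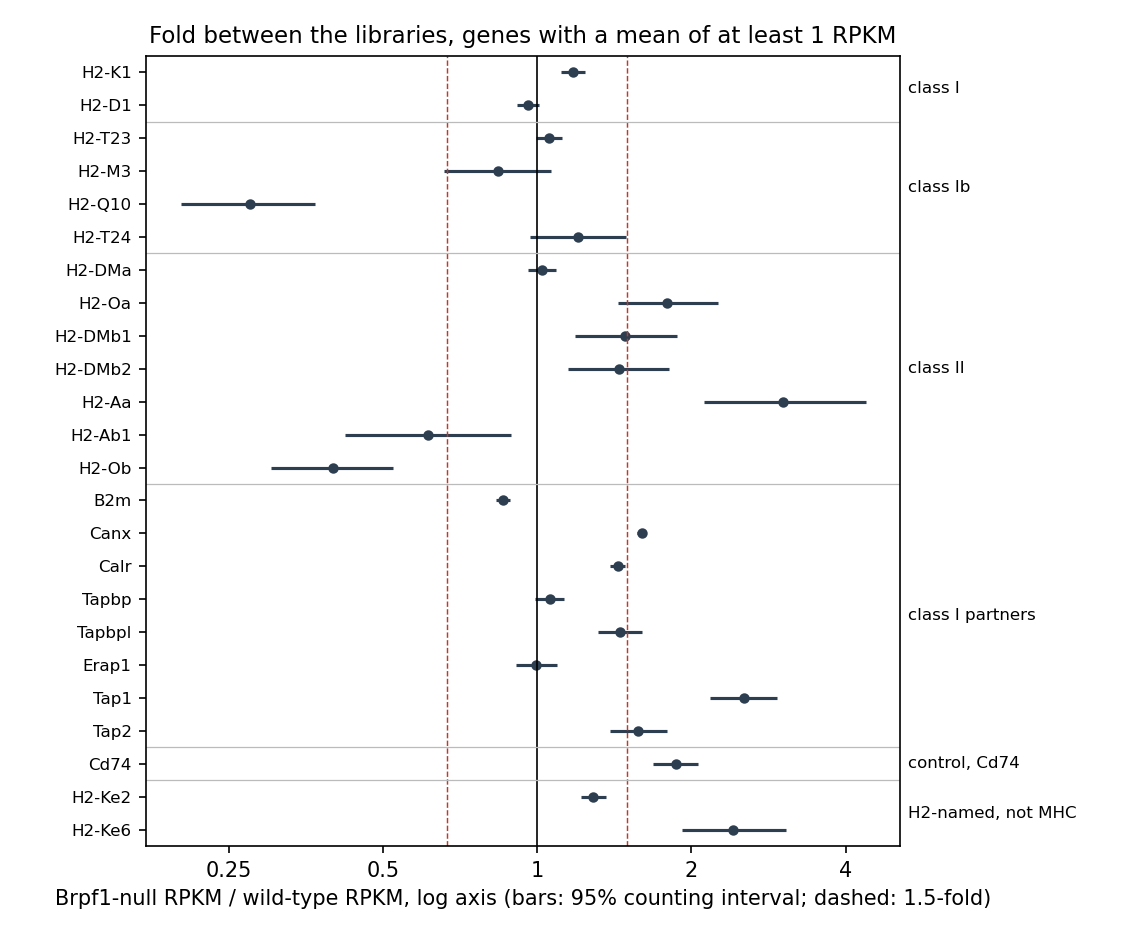
Ratio of Brpf1-null to wild-type RPKM on a log axis for the 24 genes that averaged 1 RPKM or more, with 95% counting intervals as bars and 1.5-fold as dashed lines. H2-Aa (3.01-fold higher) and H2-Ab1 (1.63-fold lower), and H2-Oa (1.79-fold higher) and H2-Ob (2.50-fold lower), lie on opposite sides of 1.

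Ratios of partner transcripts within a library show the split without comparing the scale of the libraries. Per length, H2-Aa stood at 0.562 of H2-Ab1 in the wild-type library (0.389 to 0.812) and at 2.76 in the Brpf1-null library (1.98 to 3.86), a 4.92-fold difference of the ratio (2.99 to 8.09). H2-Oa per H2-Ob was 1.59 (1.28 to 1.99) and 7.13 (5.48 to 9.26), a 4.48-fold difference (3.18 to 6.31). For H2-DM, the alpha to beta ratio H2-DMa per H2-DMb1 was 13.1 and 9.01, 0.688 of the wild-type ratio (0.545 to 0.867). H2-DMb1 per H2-DMb2, 2 beta chain copies that share sequence and not partner chains, was 0.988 and 1.015. That is a 1.03-fold difference with an interval of 0.7498 to 1.41. For Cd74 per H2-Ab1 the ratio was 6.59 in wild-type and 20.04 in Brpf1-null cells. Cd74 per H2-Aa went the other way, at 11.7 and 7.25, 0.618 of the wild-type ratio (0.430 to 0.888). These intervals are normal approximations on the log scale from the estimated reads of the transcripts and cover counting error only.

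**Figure D4:**
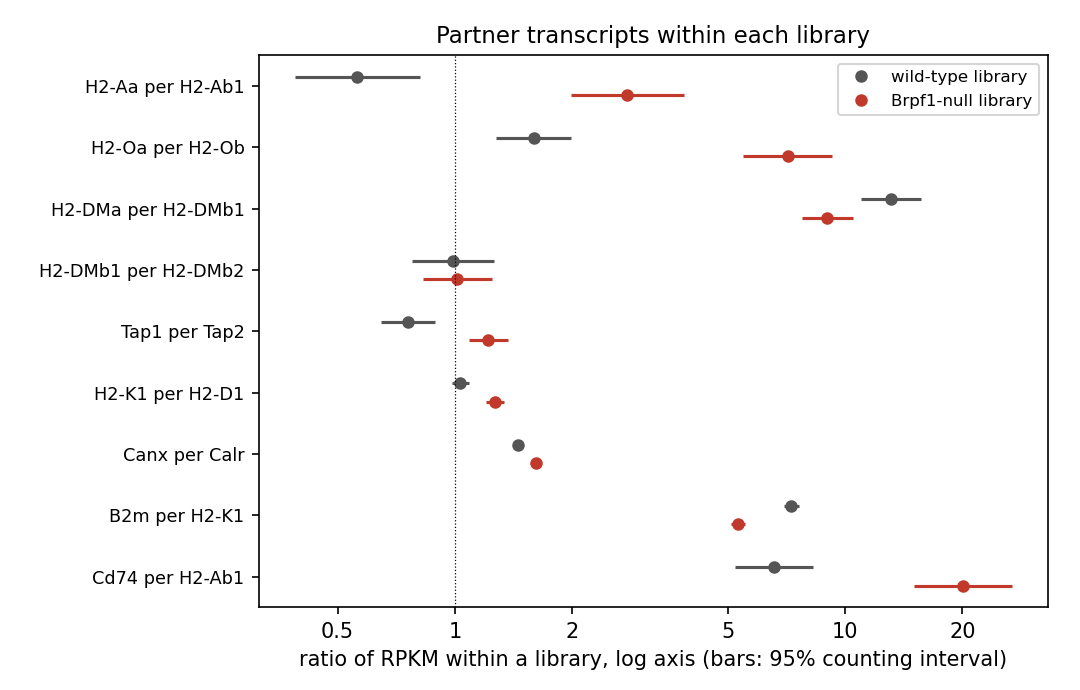
Ratio of the RPKM of 2 partner transcripts within the wild-type (grey) and the Brpf1-null (red) library, on a log axis, with 95% counting intervals as bars. H2-Aa per H2-Ab1 (0.562 and 2.76) crosses from below to above 1, H2-Oa per H2-Ob lies at 1.59 and 7.13, and H2-DMb1 per H2-DMb2 stays near 1.

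Class II promoters carry an X box and a Y box, bound by RFX and NF-Y proteins that recruit CIITA. The stretch is shown for H2-Oa and H2-Ob, which went in opposite directions, for H2-Aa, and for H2-Eb1, which was near the floor. Capitals mark the core of the X1 box (AGCAAC) and the Y box (CCAAT, which reads ATTGG on the printed strand). In H2-Aa, where AGCAAC was not found in the window, capitals mark the Y box and the palindrome TGACGTCA, a cAMP response element that contains the X2 core TGACG on both strands. The stretches lie at chr17:34092294-34092348 (plus strand, H2-Oa), chr17:34238809-34238860 (plus strand, H2-Ob), chr17:34305767-34305820 (plus strand, H2-Eb1) and chr17:34287859-34287923 (minus strand, H2-Aa) of GRCm38.p6. The table had no entry for H2-Ab1.
H2-Oa: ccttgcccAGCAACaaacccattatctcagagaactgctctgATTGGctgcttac
H2-Ob: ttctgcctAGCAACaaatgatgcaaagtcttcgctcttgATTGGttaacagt
H2-Eb1: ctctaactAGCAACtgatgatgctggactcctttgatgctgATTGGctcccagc
H2-Aa: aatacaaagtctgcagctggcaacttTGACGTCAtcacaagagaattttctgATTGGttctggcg

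Searched on both strands, AGCAAC was in 4 of the 8 class II promoters in the table and in 14.8% of all promoters, CCAAT was in 7 of 8 and in 37.4%, and TGACGTCA was in 1 of 8 and in 1.79%. Of the 23 class I and Ib promoters, AGCAAC was in 2, CCAAT in 20 and TGACGTCA in 0. The X2 core TGACG was in 1 of the 8 class II and 11 of these 23 promoters, beside 20.8% of all promoters. In H2-Oa, H2-Ob and H2-Eb1 the gap between the 2 capitalised motifs was 28, 25 and 27 bases. H2-Oa (1.79-fold higher) and H2-Ob (2.50-fold lower) hold the same capitalised letters in the same order, while the printed bases between the capitals differ. Whether any of these letters bear on the values was not tested.

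Of the 3 genes of control and the invariant chain, Cd74 was abundant and the 2 coactivators were near the floor. Cd74 was at 19.0 RPKM in wild-type and 35.4 RPKM in Brpf1-null cells, 1.86-fold higher (1.68 to 2.06), and above 1.5-fold under every setting tried. Ciita, the class II coactivator, was at 0.0164 RPKM in wild-type and 0.148 RPKM in Brpf1-null cells, from about 2 and 17 reads, a Brpf1-null to wild-type ratio of 9.04 (2.15 to 80.7). Nlrc5, the class I coactivator, went the other way, at 0.134 and 0.0259 RPKM from about 22 and 4 reads, 5.17-fold lower (1.76 to 20.6). Both rest on few reads and had a mean under 1 RPKM.

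Class II transcripts can come from several cell types, and the markers of these types differed in different directions. The 10 dendritic cell markers summed to 48.8 RPKM in wild-type and 124 RPKM in Brpf1-null cells. Among them Flt3, also counted with the LSK genes, was at 22.9 and 33.1 RPKM. Bst2 was at 6.68 and 47.1 RPKM, Irf8 at 9.24 and 32.6 RPKM, and Siglech at 2.59 and 0.338 RPKM. Clec9a was listed at 0 in both libraries. Itgax, Zbtb46 and Xcr1 (0.103 and 0.0803 RPKM) were under 1 RPKM in both. The 14 listed monocyte and macrophage markers summed to 189 and 219 RPKM. Of the 11 that averaged 1 RPKM or more, 4 were at least 1.5-fold higher and 3 lower, beside 14.1% and 9.42% of all genes. All 7 B cell markers with that mean were at least 1.5-fold lower, beside 9.42% of all genes, and Pax5 was listed at 0 in both. The part of these cell types in the class II values was not tested.

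Of the 8 genes of the light chain, peptide supply and folding, 2 were at least 1.5-fold higher in the Brpf1-null library and 0 were lower by that much, beside 14.1% and 9.42% of all genes. Their median log2 change was 0.51. Tap1, a transporter subunit, was at 3.78 RPKM in wild-type and 9.58 RPKM in Brpf1-null cells, 2.53-fold higher (2.18 to 2.94). Tap2, the other subunit, was at 4.995 and 7.87 RPKM, 1.57-fold higher (1.39 to 1.79) and at 0.56 on the log2 scale with the pseudocount, just inside 1.5-fold. Tap1 per Tap2 was 0.757 in wild-type and 1.22 in Brpf1-null cells, so the order of the subunits differed between the libraries.

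Of the chaperones calnexin and calreticulin, the first passed 1.5-fold. Canx, which encodes calnexin, was at 180 RPKM in wild-type and 287 RPKM in Brpf1-null cells, 1.60-fold higher (1.57 to 1.63). After centring, its log2 change was 0.55, inside 1.5-fold. Calr, which encodes calreticulin, was at 124 and 178 RPKM, 1.44-fold higher (1.39 to 1.48). Both chaperones fold many glycoproteins besides class I chains.

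Tapasin and its relative differed from each other. Tapbp, which encodes tapasin, the bridge between TAP and class I, was at 28.0 and 29.6 RPKM, 1.06-fold higher (0.990 to 1.13), and its log2 change went from 0.08 to −0.05 with centring. Tapbpl, the tapasin-related editor of class I peptides, was at 12.3 and 17.8 RPKM, 1.45-fold higher (1.31 to 1.60). Erap1, the peptide-trimming peptidase, was at 7.13 and 7.10 RPKM (ratio 0.995, 0.907 to 1.09), and no difference was detectable.

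Other genes of class I peptide supply, from a list outside the 52, were measured in the same libraries. Of 17 that averaged 1 RPKM or more, 2 were at least 1.5-fold higher, 1 was lower and 14 lay within 1.5-fold, beside 14.1% of all genes higher and 9.42% lower. Psmb9, an immunoproteasome subunit gene next to Tap1, was at 45.0 and 65.8 RPKM, 1.46-fold higher (1.37 to 1.57). Psmb8, the immunoproteasome subunit gene between Tap1 and Tap2, was at 193 and 154 RPKM, 0.799 of the wild-type value (0.772 to 0.828). Pdia3, the disulfide isomerase ERp57 of the loading complex, was at 17.01 and 6.49 RPKM, 2.62-fold lower (2.34 to 2.95). Uggt1, the glucosyltransferase that returns unfolded glycoproteins to calreticulin, was at 2.15 and 5.003 RPKM, 2.32-fold higher (2.08 to 2.60). Thop1, a cytosolic peptidase, was 1.59-fold higher (1.41 to 1.79) and Psme3, a proteasome activator, 1.48-fold higher (1.39 to 1.58). Within this route, neighbouring genes and partners of one complex went different ways. Psmb8 and Psmb9 were chosen with their values known.

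The class II peptide route outside the 52 genes was split as well. All 6 listed genes averaged 1 RPKM or more; 2 were at least 1.5-fold higher and 2 lower, beside 14.1% and 9.42% of all genes. Ctss, the cathepsin that trims the invariant chain in antigen-presenting cells, was at 26.2 and 50.3 RPKM, 1.92-fold higher (1.77 to 2.096), and Ifi30, a lysosomal thiol reductase, was 1.72-fold higher (1.45 to 2.04). Lgmn, an asparaginyl endopeptidase, was at 37.9 and 13.0 RPKM, 2.92-fold lower (2.65 to 3.21), and Ctsl was 1.79-fold lower (1.53 to 2.09). Of the class II promoter factors, 8 averaged 1 RPKM or more. On the log2 scale with the pseudocount 0 of these passed 1.5-fold, beside 23.5% of all genes in either direction. Their median log2 change was 0.04. Crebbp, a histone acetyltransferase, was at 3.998 and 2.59 RPKM, 1.54-fold lower as a plain ratio (1.40 to 1.71). With the pseudocount its log2 change was −0.48, inside 1.5-fold. Nfyc, a subunit of NF-Y, was at 8.78 and 10.17 RPKM.

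Genes of the interferon gamma axis were examined because interferon gamma induces class I and II genes in many cells. Ifng itself was listed at 0 in both libraries. Of 13 that averaged 1 RPKM or more, 1 was at least 1.5-fold higher, 1 was lower and 11 lay within 1.5-fold, near the shares over all genes (14.1% higher, 9.42% lower). Ifngr2, a receptor chain, was at 6.29 and 11.5 RPKM, 1.83-fold higher (1.65 to 2.04). Irgm1, an interferon-induced GTPase, was at 27.0 and 16.8 RPKM, 1.61-fold lower (1.47 to 1.75), and Irf9 1.42-fold lower (1.27 to 1.59).

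The 2 genes that carry the H2 prefix but present no antigen were both higher. H2-Ke6 (Hsd17b8) was at 4.74 RPKM in wild-type and 11.4 RPKM in Brpf1-null cells, 2.41-fold higher (1.92 to 3.05). In GENCODE M21, 79.8% of its 50-base windows are also found in Gm20427, so its reads may not be its own. H2-Ke2 (Pfdn6) was at 137 and 176 RPKM, 1.29-fold higher (1.21 to 1.36).

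Along chromosome 17, the MHC and antigen-presentation genes were set among their neighbours in RefSeq order. From Tapbp to H2-M2, 181 listed genes were placed and 83 averaged 1 RPKM or more. Of the 65 of these that are not among the 52 genes, 18 (27.7%) were at least 1.5-fold higher and 6 (9.23%) lower in the Brpf1-null library, beside 14.1% and 9.42% of all genes. With the GC trend removed, 24.6% of them were higher, beside 12.8% of all genes, and the median GC content of their transcripts was 55.8%, beside 50.6%. Genes that border each other differed: H2-Ob and H2-Ab1 were lower while H2-Aa, next in order, was higher.

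**Figure D5:**
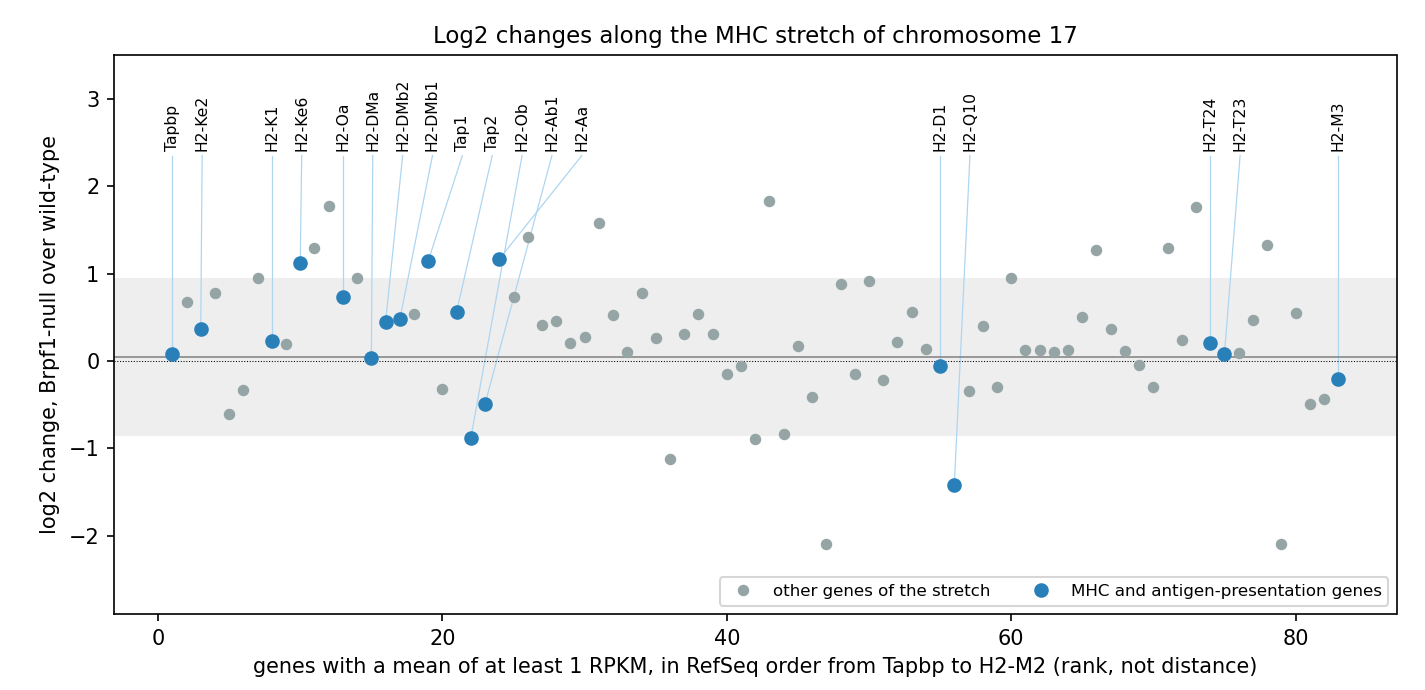
Log2 change (Brpf1-null over wild-type, RPKM + 1) of the 83 genes that averaged 1 RPKM or more from Tapbp to H2-M2, in RefSeq order, with MHC and antigen-presentation genes in blue and the rest in grey; thin lines only link labels to points. The grey band runs from the 5th to the 95th percentile of all 9380 genes (−0.85 to 0.94) and the grey line is their median (0.04); H2-Aa, Tap1 and H2-Ke6 lie above the band, and H2-Q10 and H2-Ob below it.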

How the data were processed

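Reads were aligned with TopHat to mm9, per the submitters' processing notes; the sources used here give neither its version nor the annotation and counter. The authors deposited RPKM for pair 1 and FPKM for pair 2, with a fold change ratio and its log2, per the file headers. All 20207 genes of the 2 tables matched and 0 values differed, so they count as 1 library per genotype, and the deposited ratios were not used. Changes are differences of log2(RPKM + 1), Brpf1-null minus wild-type, a scale that understates the change of low genes, and folds are plain ratios. Only genes that averaged 1 RPKM or more entered the counts and medians. No test was made: the design allowed none with 1 library per genotype.

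The size of each library was estimated from the steps between low RPKM values with GENCODE M21 transcripts linked to RefSeq (lengths for 98.0% of genes); 67.4% of 1127 wild-type and 68.2% of 1153 Brpf1-null values came out whole within 0.1 read, against 26.4% and 29.9% with sizes raised by 5%. Reads per gene are estimates, and fold intervals are exact Clopper-Pearson intervals of the Brpf1-null share. This recovery was tested on simulated data. The rule for named genes took all of the 52 at 1 RPKM or more in the higher library, and up to 4 per further list by size of change; H2-Q7, H2-Eb1, H2-Eb2, H2-Ea, H2-T3, Ciita, Nlrc5, single markers and genes listed at 0 were named outside it, with their values known. One gene that this rule names is not reported here. The 52 genes and all lists were chosen with earlier results of these data known. Tools were Python 3.11.15, numpy 2.4.6, scipy 1.17.1 and statsmodels 0.14.6.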

Additional observations from a re-analysis of the deposited data

How the results depend on the processing

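Of 24 single genes, 20 kept the sign of their log2 change with pseudocounts of 0.1 and 5 RPKM, centring, quantile normalization and the GC trend removed; Erap1, H2-DMa, H2-T23 and Tapbp did not. The other settings were no filter and a filter at a mean of 5 RPKM, which leave a gene's own value as it is. The classical class I median of 0.09 was −0.040 after centring and −0.034 with the GC trend removed. The class II median of 0.44 was 0.031 with no filter. The median of the light chain, peptide supply and folding genes, 0.51, was 0.38 with a pseudocount of 5 RPKM and 0.39 after centring. Cd74 stood alone for the control genes at 0.86, which was 0.70 with the GC trend removed and 0.18 with no filter, where Ciita and Nlrc5 enter. The class Ib median of −0.07 was 0.08 with a mean of at least 5 RPKM, where fewer genes are left. The higher genes numbered 4 to 7, beside 6, and the 2 lower genes became 1 with a pseudocount of 5 RPKM and 0 under the filter at 5 RPKM, which removes both, and 3 with a pseudocount of 0.1 RPKM or the GC trend removed, where H2-Ab1 joined. The 2207 of all genes past 1.5-fold became 947 with that pseudocount and 1276 with that filter. The cause of the other shifts was not tested. No paired analysis was possible because the tables of the 2 pairs hold the same values, and leaving out a pair was not possible for the same reason.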

Other observations

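Class I-like genes outside the MHC showed one large difference. Hfe, the class I-like regulator of iron uptake, was at 1.47 RPKM in wild-type and 5.54 RPKM in Brpf1-null cells, 3.76-fold higher (3.08 to 4.63), the highest fold among the 4 genes of this list that averaged 1 RPKM or more. Fcgrt, the neonatal Fc receptor heavy chain that also pairs with B2m, was at 16.8 and 19.1 RPKM, and Cd1d1, which presents lipids, at 10.62 and 10.42 RPKM. Procr, a class I-like receptor for protein C and a stem cell marker, was at 5.54 and 3.68 RPKM, 1.505-fold lower (1.20 to 1.88). Of the 7 co-stimulation genes, 2 averaged 1 RPKM or more. Of these, 0 passed 1.5-fold on the log2 scale with the pseudocount, beside 23.5% of all genes in either direction. Cd40 and Cd80 were listed at 0 in both libraries, Cd86 was at 5.66 and 5.35 RPKM, and Cd274, which encodes PD-L1, at 1.45 and 0.932 RPKM, 1.55-fold lower (1.16 to 2.0996).

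Several neighbours of the MHC genes differed by more than most of the MHC genes; these were chosen after their values were seen. Clic1, a chloride channel protein gene, was at 75.1 RPKM in wild-type and 270 RPKM in Brpf1-null cells, Rxrb, a retinoid receptor gene, at 3.36 and 13.9 RPKM, and Brd2, a bromodomain gene next to H2-DMa, at 7.86 and 16.1 RPKM. Apom, an apolipoprotein gene of the liver, was at 77.7 and 17.4 RPKM. Whether the share of higher genes in this stretch is tied to its gene content or to its sequence was not tested.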
